A study of Mus musculus with 3 samples.

Results

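The Rhox genes (reproductive homeobox on the X chromosome) were examined in mouse ES cells that had lost Nr0b1. The members were all probes of the array whose gene name begins with Rhox, which gave 29 probes for 23 gene names out of 35019 gene names in all. The results turn on Rhox5, Rhox6 and Rhox9, which were picked because of how they moved in these same comparisons, so their values are given as a description and carry no test. The other 20 names entered by name alone.

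Nr0b1, called Dax1 in the sample labels, encodes an orphan nuclear receptor that lacks a DNA-binding domain and works as a partner of other receptors. RNA was measured on 9 one-colour Agilent expression arrays, 3 per group. The first group was Nr0b1 fl-/Y−Tx cells (labelled Dax1 flox/Y), in which loxP sites flank exon 2 of the single X-linked copy. The same cells after 4 days with 4-hydroxy tamoxifen (Tx), which sets the Cre recombinase to work, formed the second group, Nr0b1 fl-/Y+Tx (labelled Dax1 flox/Y + Cre 4days). The third was Nr0b1 KO/Y cells (labelled Dax1 KO/Y), established as a line after the deletion. All groups derive from male EB5 ES cells, were grown with LIF, and carry MerCreMer, a tamoxifen-dependent Cre driven by the ubiquitous CAG promoter, together with Egfp. No array held cells given Tx without the floxed allele, so an effect of Tx or of active Cre and an effect of losing Nr0b1 cannot be told apart in the +Tx group. The study made independent clones. Which of them supplied the arrays is not given in the sources used here, nor whether the cells lay on feeder fibroblasts, although the methods name both ways of culture.

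The Rhox cluster holds a large family of paired-like homeobox genes in a single stretch of the X chromosome. Homeobox genes encode transcription factors that bind DNA through the homeodomain. Members of the family are known for expression in the testis, the ovary, the epididymis and the placenta. In the mouse several members, among them Rhox2, Rhox3 and Rhox4, stand in near-identical copies. Rhox5, first named Pem, is the founding member, is highly expressed in ES cells and extraembryonic tissues, and is controlled by androgen in Sertoli cells. It is also a classic example of a gene whose silence in somatic cells goes with DNA methylation.

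Each gene was read by probes of 60 bases, and the stretch that a probe covers decides which copy or transcript is measured. Of each probe shown, 30 bases are printed 5′ to 3′. For the 3 genes that carry the main result, each with 1 probe on the array, these are the first 30 bases. The probe of Rhox6 lies at chrX:35182945-35183004 and that of Rhox9 at chrX:35254147-35254206, on the plus and the minus strand (mm9, array annotation). The array annotation gives no coordinate for the probe of Rhox5.
Rhox5: tggagtgagatggggagaaagatgcccttt
Rhox6: aggatggcttcttctgagccacccatgatg
Rhox9: caccaggttcacccactctcagctgcgtga

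The next set is shown because it limits what can be said of Rhox10, Rhox8 and the Rhox4 copies. Rhox10 has a probe for its RefSeq transcript at chrX:35424740-35424799 and a second probe, at chrX:35443086-35443145, designed on an Ensembl transcript (both plus strand). The last 17 bases of the second probe, in capitals, are also the last 17 of the Rhox11 probe.
Rhox10, RefSeq transcript, bases 1 to 30: gagtagtacctctgttcctgaggagcaaat
Rhox10, Ensembl transcript, bases 31 to 60: gaaggtcattttcTTGGTGGAATCCAAGAA
Rhox11, bases 31 to 60: tcgcatgaagactTTGGTGGAATCCAAGAA
The brighter of the 2 Rhox8 probes holds a run of 42 bases of repeated GAA, in capitals, and the Rhox4a and Rhox4g probes differ at 2 of 60 bases, also in capitals.
Rhox8, brighter probe, bases 1 to 30: aGAAGAAGAAGAAGAAGAAGAAGAAGAAGA
Rhox4a, bases 31 to 60: agtcagttaggaatgaatgatgaCgccTct
Rhox4g, bases 31 to 60: agtcagttaggaatgaatgatgaTgccCct

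Levels are given as log2 of the spot's processed intensity minus the 75th percentile of log2 intensity on the same array, so that 0 is the 75th percentile and a step of 1 is a doubling. They are compared between groups of arrays and not between probes. A probe was kept when it stood well above its local background on all 3 arrays of 1 group or more. This left 20 Rhox probes of 18 genes. The genes Rhox11, Rhox12, Rhox3-ps, Rhox3e and Rhox3g-ps were not kept. Apart from Rhox2c and Rhox4c, the other 16 of the 18 genes had a probe well above background on all 9 arrays. Differences were tested with limma across all probes in 1 fit of the 9 arrays, with Benjamini-Hochberg adjustment, and a probe was called when it moved over 2-fold at an adjusted p under 0.05. The 3 comparisons share arrays, so their values are set side by side and are not independent of each other. Counts at an unadjusted p have no share of all genes beside them and only describe the members counted.

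Between 51.7% and 58.4% of the probes on an array were well above background and 0 spots were saturated. The arrays lay on 2 slides. The first held the 3 −Tx arrays and 1 +Tx array, and the second held the other 2 +Tx arrays and the 3 KO/Y arrays. Slide and group therefore cannot be told apart between KO/Y and −Tx cells except through the +Tx arrays. As a check of the labels, Nr0b1 read −2.58, −2.66 and −2.42 on the +Tx arrays, against 4.02, 4.18 and 4.10 on the −Tx arrays, and was 101-fold lower in +Tx cells (limma adjusted p = 5.4e-09). In KO/Y cells all 3 arrays had it not well above background, which made it at least 357-fold lower than in −Tx cells. Of 17 markers of pluripotent cells, Tfcp2l1 alone was called, lower in +Tx and in KO/Y than in −Tx cells. At an adjusted p under 0.05 without the fold limit, 10 were lower and 2 higher (Klf4 and Tbx3) in KO/Y than in −Tx cells. By the same measure 5922 of all 22441 genes tested were lower and 4610 higher.

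Rhox6 and Rhox9 were lower in +Tx than in −Tx cells and stood near the −Tx level in KO/Y cells. Rhox6 and Rhox9, first named Psx1 and Psx2, are known from the placenta and from germ cells. Rhox6 read 0.85, 0.76 and 0.78 on the −Tx arrays, −1.52, −1.71 and −1.57 on the +Tx arrays, and 0.59, 0.76 and 0.44 on the KO/Y arrays. The +Tx arrays lay below both other groups by at least 1.96, while KO/Y and −Tx arrays met at 0.76. The log2 fold change was −2.40 in +Tx over −Tx cells (SE 0.093, n = 3 each) and 2.20 in KO/Y over +Tx cells, which left KO/Y over −Tx cells at −0.20. In linear terms Rhox6 was 5.27-fold lower in +Tx than in −Tx cells, and 4.59-fold higher in KO/Y than in +Tx cells.

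Rhox9 had the same pattern with a wider spread. It read 1.51, 1.40 and 1.36 on the −Tx arrays, −0.34, −0.72 and −0.68 on the +Tx arrays, and 0.92, 1.13 and 0.73 on the KO/Y arrays. Here the groups did not overlap in any pair, and the lowest −Tx array stood 0.24 above the highest KO/Y array. The log2 fold change was −2.00 in +Tx over −Tx cells (SE 0.13, n = 3 each), 1.50 in KO/Y over +Tx cells and −0.50 in KO/Y over −Tx cells. So KO/Y cells stood within 1.41-fold of the −Tx level for Rhox9 and 1.15-fold for Rhox6. With slide as a block, which rests the first comparison on 1 +Tx array, the KO/Y over −Tx values were −0.14 for Rhox9 and −0.09 for Rhox6.

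Rhox5 was lower in +Tx than in −Tx cells and lower still in KO/Y cells. It read 7.03, 7.06 and 6.95 on the −Tx arrays, 6.18, 6.13 and 6.16 on the +Tx arrays, and 4.28, 4.42 and 4.38 on the KO/Y arrays. Each group lay clear of the next, by 0.77 between +Tx and −Tx cells and by 1.71 between KO/Y and +Tx cells, while arrays of 1 group spanned at most 0.15. The log2 fold change was −0.86 in +Tx over −Tx cells (SE 0.065, n = 3 each), −1.80 in KO/Y over +Tx cells and −2.66 in KO/Y over −Tx cells, or 6.31-fold lower. The step in +Tx over −Tx cells was 1.81-fold, under the 2-fold limit, and was not called. The larger step lay between +Tx and KO/Y cells. KO/Y cells are an established line and not the +Tx cultures followed in time. Because RNA of whole cultures was measured, fewer cells that express a Rhox gene and less RNA in each cell cannot be told apart.

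**Figure D1:**
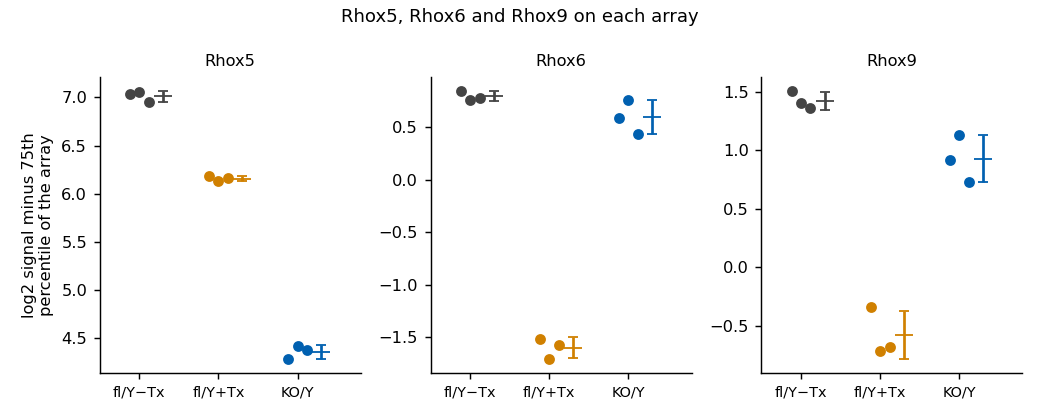
Log2 signal minus the 75th percentile of the array (y axis, its range set for each gene) of Rhox5, Rhox6 and Rhox9 in the 3 groups (x axis, in the order fl/Y−Tx, then fl/Y+Tx, then KO/Y). Points are single arrays and bars are the mean ± SD of 3 arrays: Rhox5 is lower in +Tx than in −Tx cells and lowest in KO/Y cells, at 4.36, while Rhox6 and Rhox9 are lowest in +Tx cells, at −1.60 and −0.58.

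The contrast between the members, which were picked for it, can also be given as a distance, as a description. Each gene's 9 values were centred on their mean, and the root mean square difference over the 9 arrays was taken between genes. It was 0.294 between Rhox6 and Rhox9, against 1.649 between Rhox5 and Rhox6 and 1.377 between Rhox5 and Rhox9. Among 1393 other genes with a symbol that were called in at least 1 comparison, the nearest to Rhox6 was Stard8 at 0.358. Next to Rhox6 came Krt23, a keratin, at 0.377, Fxyd4, a regulator of the sodium pump, at 0.413, and at 0.460 both Siglecf, a sialic acid-binding lectin, and Dppa3, the maternal factor also called Stella. For Rhox9 the same measure gave Siglecf at 0.215, Dppa3 at 0.251, Stard8 at 0.274, Fxyd4 at 0.282 and Cfc1, a co-receptor of Nodal, at 0.317. So 4 of the 5 names are shared by Rhox6 and Rhox9, and all 4 stood nearer to Rhox9 than Rhox6 did. On the +Tx arrays Krt23 was well above background on 0 of 3 and Siglecf on 2 of 3, so their values there lie near background. Nearest to Rhox5 were Gbx2, a homeobox gene downstream of LIF, at 0.143, Mycn, a Myc family transcription factor, at 0.147, Accsl at 0.152, Celsr3, a seven-pass cadherin, at 0.181 and Myb, a transcription factor of progenitor cells, at 0.182. Mycn, for instance, read 3.71, 3.78 and 3.70 on the −Tx arrays, 2.98, 2.87 and 3.03 on the +Tx arrays, and 1.34, 1.25 and 1.49 on the KO/Y arrays. These distances describe 9 arrays of 3 groups, and all genes compared were read from the same arrays.

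Rhox10 moved the other way on the probe of its RefSeq transcript. Rhox10 is expressed in spermatogonia and is needed for a normal pool of spermatogonial stem cells. This probe read −2.01, −2.15 and −1.72 on the −Tx arrays, 0.13, 0.12 and 0.18 on the +Tx arrays, and 0.70, 0.79 and 0.73 on the KO/Y arrays. The 3 groups were apart from each other, and most of the difference between KO/Y and −Tx cells was present in +Tx cells. The log2 fold change was 2.10 in +Tx over −Tx cells (SE 0.10, limma adjusted p = 4.53e-06), and 2.70 in KO/Y over −Tx cells (adjusted p = 4.05e-07). Between KO/Y and +Tx cells it was 0.60 (adjusted p = 0.00409), which is under 2-fold and was not called. In linear terms Rhox10 on this probe was 4.29-fold higher in +Tx and 6.50-fold higher in KO/Y than in −Tx cells.

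The second Rhox10 probe did not show this. It read 1.08, 0.94 and 0.40 on the +Tx arrays, against 0.98, 1.05 and 0.88 on the −Tx arrays, with overlap. Its log2 fold changes were −0.16, 0.25 and 0.09 in +Tx over −Tx, KO/Y over +Tx and KO/Y over −Tx cells (limma adjusted p = 0.52, 0.312 and 0.685). The Rhox11 probe, which shares 17 bases with it, stood at background level, not well above it, on each of the 9 arrays. Where a gene was represented by its brightest probe, this second probe stood for Rhox10, so Rhox10 is called in counts of probes and not in counts of genes.

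Rhox13, a gene of testicular germ cells at the far end of the cluster, was higher in KO/Y than in −Tx cells, with +Tx cells between them. It read −1.51, −1.38 and −1.35 on the −Tx arrays, −0.35, −0.50 and −0.47 on the +Tx arrays, and 0.19, 0.61 and 0.61 on the KO/Y arrays. No pair of groups overlapped. The log2 fold change was 0.97 in +Tx over −Tx cells (SE 0.12, limma adjusted p = 0.000938), 0.91 in KO/Y over +Tx cells (adjusted p = 0.00102) and 1.88 in KO/Y over −Tx cells (adjusted p = 7.58e-06). Each single step was just under the 2-fold limit, at 1.96-fold and 1.88-fold, and the 3.69-fold difference between KO/Y and −Tx cells was called. The first step passed the limit without −Tx array 3 or without +Tx array 2 and with slide as a block (1.06 on the log2 scale), and the second step passed it without KO/Y array 1.

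**Figure D2:**
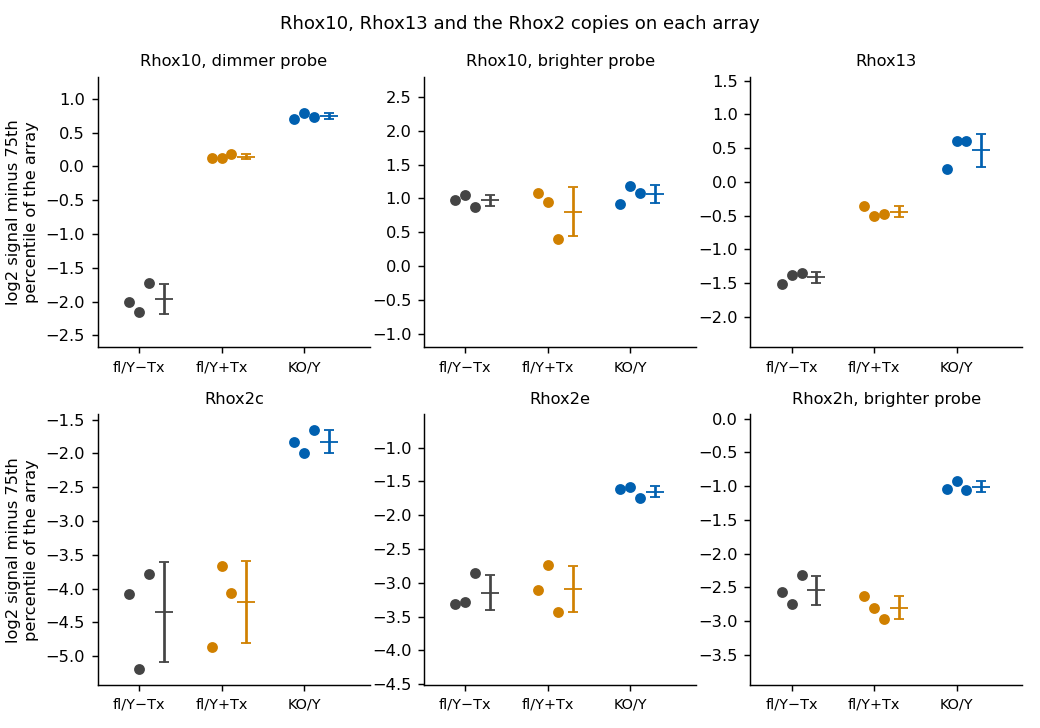
Log2 signal minus the 75th percentile of the array (y axis, each panel spanning the same range of 4) of the Rhox10 probes, Rhox13 and the Rhox2 copies in the 3 groups (x axis, from fl/Y−Tx to KO/Y). Points are single arrays and bars are mean ± SD of 3 arrays: the dimmer Rhox10 probe, which covers the RefSeq transcript, and Rhox13 are higher in +Tx than in −Tx cells, and the Rhox2 copies are higher in KO/Y cells than in both other groups.

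The Rhox2 copies, which are known from the testis and the placenta, were higher in KO/Y cells and did not pass the test at day 4. On its brighter probe Rhox2h read −2.56, −2.75 and −2.32 on the −Tx arrays, −2.62, −2.81 and −2.96 on the +Tx arrays, and −1.04, −0.92 and −1.06 on the KO/Y arrays. Rhox2e read −3.31, −3.28 and −2.85 on the −Tx arrays, −3.11, −2.74 and −3.43 on the +Tx arrays, and −1.62, −1.59 and −1.75 on the KO/Y arrays. Both were above all arrays of the other groups in KO/Y cells, and the +Tx and −Tx arrays overlapped. Rhox2h had a log2 fold change of 1.79 in KO/Y over +Tx cells (SE 0.12, limma adjusted p = 4.53e-05) and of 1.53 in KO/Y over −Tx cells (adjusted p = 3.13e-05), with −0.26 in +Tx over −Tx cells (adjusted p = 0.175). Rhox2e had 1.44 in KO/Y over +Tx cells (SE 0.18, adjusted p = 0.000856), 1.49 in KO/Y over −Tx cells (adjusted p = 0.000266) and 0.05 in +Tx over −Tx cells (adjusted p = 0.855).

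Rhox2c lay close to background. It read −4.08, −5.19 and −3.79 on the −Tx arrays, −4.87, −3.67 and −4.06 on the +Tx arrays, and −1.83, −2.00 and −1.66 on the KO/Y arrays. It was well above background on all 3 KO/Y arrays and on 1 of 3 arrays in each other group. It was kept only through the group where it was high, so its difference is not counted as support for the others. Its log2 fold change was 2.37 in KO/Y over +Tx cells (limma adjusted p = 0.00316) and 2.52 in KO/Y over −Tx cells (SE 0.39, limma adjusted p = 0.000939), the second being 1.52 with slide as a block (adjusted p = 0.121). Rhox2h and Rhox2e are dim as well, and with normexp background correction their KO/Y over −Tx values were 0.87 and 0.81, under the 2-fold limit, as was Rhox2c at 0.95. In KO/Y over +Tx cells normexp gave 0.81 for Rhox2e, which ended its call, 1.06 for Rhox2h and 1.08 for Rhox2c. Each of the 3 probes lists 4 RefSeq transcripts, so the copies of Rhox2 cannot be told apart by them. The dimmer Rhox2h probe lists 1 RefSeq transcript. It was well above background on 0 of 3 arrays in each group and was not kept. The rise given for Rhox2h is therefore not tied to that copy.

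The near-identity of these copies extends to the bases before their starts. The 250 bases upstream of each RefSeq start are shown (RefSeq, GRCm38.p6) because these copies were called together in KO/Y cells. Capitals mark the 13 positions at which the 3 are not the same. Rhox2c and Rhox2e share 248 of 250 bases, and each shares 238 with Rhox2h. Rhox2c lies at chrX:37453409-37453658 on the plus strand, Rhox2e at chrX:37530218-37530467 on the plus strand and Rhox2h at chrX:37673278-37673527 on the minus strand.
Rhox2c: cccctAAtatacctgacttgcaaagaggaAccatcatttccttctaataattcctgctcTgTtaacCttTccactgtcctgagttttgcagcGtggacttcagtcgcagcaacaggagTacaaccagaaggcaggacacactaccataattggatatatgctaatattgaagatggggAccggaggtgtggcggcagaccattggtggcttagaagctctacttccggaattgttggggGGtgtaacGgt
Rhox2e: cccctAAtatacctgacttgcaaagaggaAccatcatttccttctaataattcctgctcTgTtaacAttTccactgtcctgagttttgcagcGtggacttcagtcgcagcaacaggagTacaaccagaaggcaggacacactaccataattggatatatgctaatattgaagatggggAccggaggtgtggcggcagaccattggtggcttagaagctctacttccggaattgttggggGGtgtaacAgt
Rhox2h: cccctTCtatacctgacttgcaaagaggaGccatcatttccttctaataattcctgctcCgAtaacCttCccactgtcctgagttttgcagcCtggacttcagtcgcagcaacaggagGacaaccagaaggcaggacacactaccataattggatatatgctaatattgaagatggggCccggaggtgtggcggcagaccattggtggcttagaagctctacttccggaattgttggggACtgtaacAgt

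Of the 23 Rhox genes, 17 had an upstream window in the RefSeq table. Rhox6 and Rhox9 were not among them, so the counts leave them out. A search on both strands for AGGTCA, the hexamer that many nuclear receptors bind, found it in 7 of the 17, against 14.0% of the 32851 upstream windows of all genes. The 7 were Rhox4a, Rhox4c, Rhox4e, Rhox4g, Rhox3e, Rhox3f and Rhox12, of which Rhox3e and Rhox12 were not kept and the other 5 were called in no comparison. Copies of a gene share these letters, so the 7 are not separate events. The longer form TCAAGGTCA, which contains AGGTCA and is bound by the receptors of the Nr5a family, was in 0 of the 17, against 0.387% of all windows, and TATAAA was in 1 of the 17, against 12.4%. The windows of Rhox5, Rhox10, Rhox13, Rhox2c, Rhox2e and Rhox2h held none of these letters. In CG dinucleotides, the site of DNA methylation, they held 4, 8, 4, 6, 5 and 5, in that order of genes, against a median of 6 over all windows with quartiles of 2 and 16.

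Counted over the cluster, the genes did not move as one. In +Tx over −Tx cells, 0 of the 18 Rhox genes were called higher and 2 lower (Rhox6 and Rhox9), beside 1.75% and 0.762% of the 22441 genes tested. In KO/Y over +Tx cells, 5 were higher (Rhox2c, Rhox2e, Rhox2h, Rhox6 and Rhox9) and 1 lower (Rhox5), beside 2.37% and 1.05%. In KO/Y over −Tx cells, 4 were higher (Rhox13, Rhox2c, Rhox2e and Rhox2h) and 1 lower (Rhox5), beside 4.72% and 2.84%. The picked genes are part of these counts, which therefore are a description. Of the 15 genes that entered by name alone, 0, 3 and 4 were called higher in the 3 comparisons, and Rhox2c is among them. The Rhox2 copies make up all 3 in KO/Y over +Tx cells and 3 of the 4 in KO/Y over −Tx cells. Their probes do not tell the copies apart, so these calls, here and over single probes, are not separate events. At an unadjusted p under 0.05 from limma, 2 of the 15 were higher and 2 lower in +Tx over −Tx cells. At an adjusted p under 0.05, 1 was higher and 0 lower there, against 2678 and 3302 of all 22441 genes. In the last comparison 5 of the 15 were higher at an adjusted p under 0.05 and 0 were lower, with 1 lower at an unadjusted p under 0.05. Of the 22441 genes, 4610 were higher and 5922 lower there at an adjusted p under 0.05. The median log2 fold change of the 18 genes was −0.14, 0.29 and −0.07, against −0.064, 0.008 and −0.063 over all genes. Over single probes, 1 of the 20 Rhox probes was higher and 2 were lower in +Tx over −Tx cells, beside 1.71% and 0.85% of the 31189 probes tested. The probe counts were 5 and 1 in KO/Y over +Tx cells, beside 2.23% and 1.3%, and 5 and 1 in KO/Y over −Tx cells, beside 4.58% and 3.25%.

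**Figure D3:**
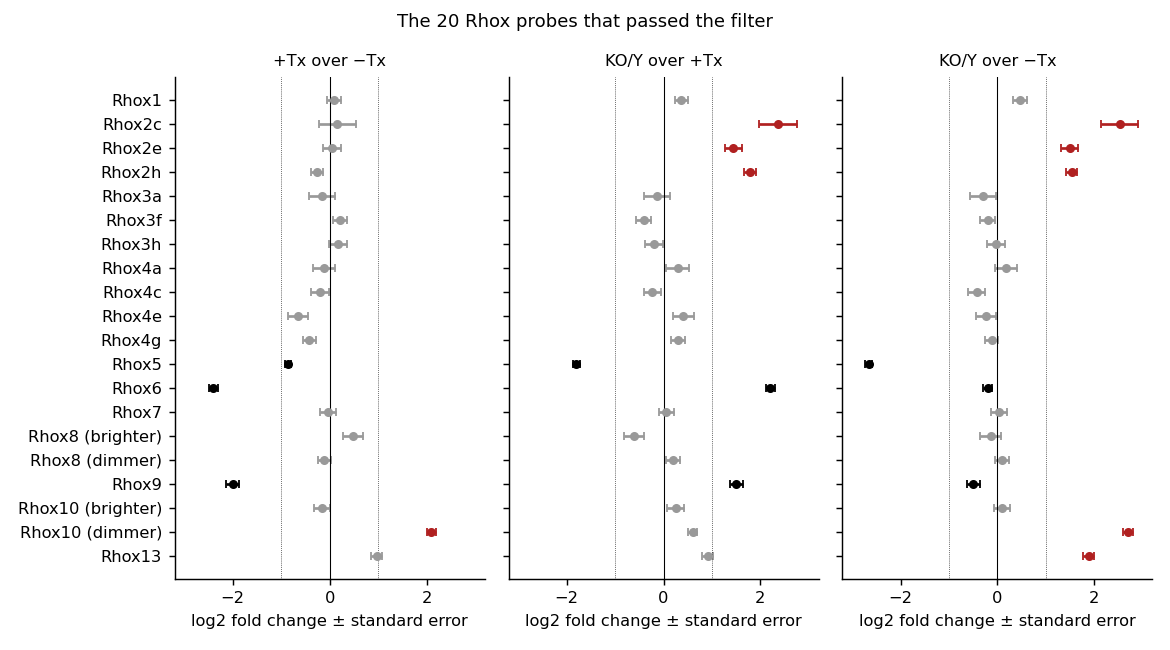
Log2 fold change ± standard error from the fit of 9 arrays (x axis) of the 20 Rhox probes that passed the filter (y axis), in the 3 comparisons. Black points are Rhox5, Rhox6 and Rhox9, which were picked on these comparisons; red points are other probes called higher, grey points were not called, and dotted lines mark 2-fold: Rhox6 stands at −2.40 in +Tx over −Tx cells and at 2.20 in KO/Y over +Tx cells.

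The other probes that were kept were called in no comparison. At an unadjusted p under 0.05 from limma, 3, 3 and 2 of them differed in the 3 comparisons. There were 12, of 11 genes (Rhox1, Rhox3a, Rhox3f, Rhox3h, Rhox4a, Rhox4c, Rhox4e, Rhox4g, Rhox7, Rhox8 and the second probe of Rhox10). Their log2 fold changes ran from −0.65 (Rhox4e) to 0.48 (Rhox8) in +Tx over −Tx cells, from −0.61 (Rhox8) to 0.41 (Rhox4e) in KO/Y over +Tx cells, and from −0.43 (Rhox4c) to 0.46 (Rhox1) in KO/Y over −Tx cells. Only Rhox1 in the last of these had an adjusted p under 0.05 (limma adjusted p = 0.0224), at 1.38-fold. It read −2.89, −2.90 and −3.37 on the −Tx arrays, −2.93, −2.85 and −3.11 on the +Tx arrays, and −2.68, −2.51 and −2.58 on the KO/Y arrays, where all 3 lay above the other groups. Rhox3a read −0.41, −0.96 and −1.25 on the −Tx arrays, −0.99, −0.77 and −1.33 on the +Tx arrays, and −1.56, −0.75 and −1.17 on the KO/Y arrays, so that all groups overlapped. Rhox7 ran from −3.13 to −2.52 over the 9 arrays, Rhox3f from −2.87 to −1.98 and Rhox3h from −3.01 to −2.38. The Rhox3f and Rhox3h probes differ at 2 of 60 bases, so these copies are not told apart with certainty. Rhox4, first named Ehox, has been studied in differentiating ES cells. Its copies read between −4.42 and −1.69 over all arrays. Rhox4e read −2.63, −2.80 and −3.05 on the +Tx arrays, against −2.16, −2.66 and −1.72 on the −Tx arrays, which overlapped by a single array, and had −0.65 (SE 0.21, limma adjusted p = 0.0601). Rhox4g read −2.04, −2.25 and −2.51 on the +Tx arrays, against −1.81, −2.04 and −1.69 on the −Tx arrays, and had −0.42 in +Tx over −Tx cells (SE 0.14, limma adjusted p = 0.0573). Rhox8, known from Sertoli and granulosa cells, read 6.60, 5.70 and 6.05 on the +Tx arrays with the GAA-repeat probe, against 5.56, 5.58 and 5.78 on the −Tx arrays. With its other probe it read 0.10, −0.02 and −0.44 on the +Tx arrays, against 0.02, 0.05 and −0.08 on the −Tx arrays, with overlap. So neither Rhox8 probe passed the test.

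Genes around the cluster were counted beside the share over all genes. On mm9 the outermost Rhox probes span chrX:34753955-35476295, or 722 kb. Of 30 other genes measured within 1 Mb of the cluster, 0 were called by limma in +Tx over −Tx cells, where 4 were higher and 3 lower at an unadjusted p under 0.05. Of all genes, 1.75% were called higher and 0.762% lower there. At an adjusted p under 0.05 without the fold limit, 2 of the 30 were higher and 1 lower. By that measure 2678 of all 22441 genes were higher and 3302 lower. In KO/Y over +Tx cells 2 of the 30 were higher (Gm9 and the unannotated transcript NAP103898-1) and 0 lower. That is 6.67% higher, beside 2.37% of all genes higher and 1.05% lower. In KO/Y over −Tx cells 2 were higher (NAP103898-1 and Lonrf3) and 1 lower (Slc25a43). That is 6.67% and 3.33%, beside 4.72% and 2.84% of all genes. The median log2 fold changes of the 30 genes were −0.036, 0.001 and −0.050. Only 3 of the 30 lie between Rhox probes, and of these NAP103898-1, at chrX:34785600-34785659, was called. It read −3.45, −2.94 and −3.55 on the KO/Y arrays and no array of the other groups had it well above background, so that it was at least 1.75-fold higher in KO/Y than in +Tx cells and at least 1.80-fold higher than in −Tx cells. Of 833 other X-linked genes, 2.04% were higher and 1.2% lower in +Tx over −Tx cells, 5.76% and 1.92% in KO/Y over +Tx cells, and 7.92% and 4.08% in KO/Y over −Tx cells.

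**Figure D4:**
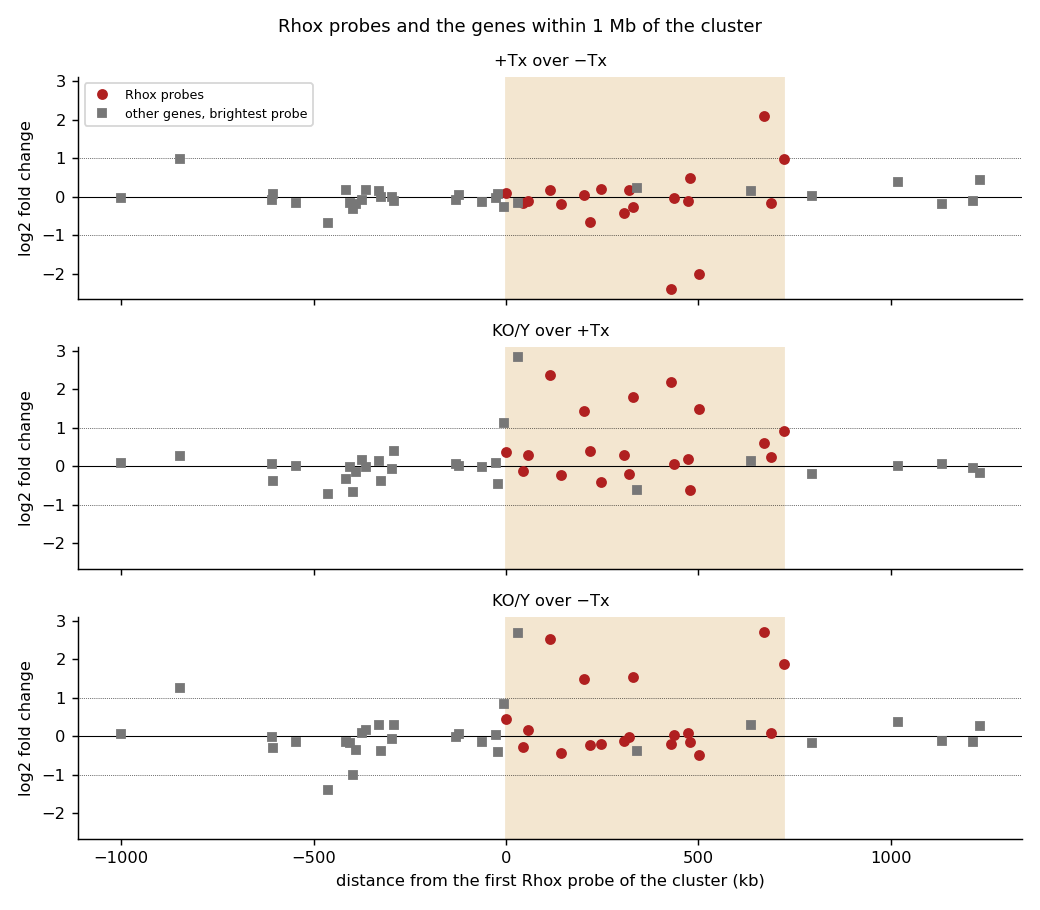
Log2 fold change (y axis) against distance in kb from the first Rhox probe of the cluster (x axis) for the kept Rhox probes that have a coordinate (red) and the 30 other genes measured within 1 Mb (grey), in the 3 comparisons. The shaded stretch of 722 kb holds the cluster and dotted lines mark 2-fold; Rhox5 has no coordinate in the array annotation and is left out.

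Genes of settings in which Rhox genes have been studied were counted from lists. The lists were chosen with earlier results of these data known. Over all 22441 genes, 1.75%, 2.37% and 4.72% were called higher in the 3 comparisons, and 0.762%, 1.05% and 2.84% lower. Of 12 genes of DNA methylation and repressive chromatin, 1 was lower in +Tx over −Tx cells, the linker histone gene H1f4 at −1.14 (SE 0.26, limma adjusted p = 0.0136), and 0 were called in the other comparisons. At an unadjusted and at an adjusted p under 0.05 from limma, 3 were higher and 6 lower in KO/Y over +Tx cells, and 3 and 7 in KO/Y over −Tx cells, all within 2-fold. The medians of the list were −0.03, −0.17 and −0.28. Of 6 genes of the nuclear receptor and Sertoli context of Rhox5, 0 were called in any comparison. Without the fold limit, 2 of these 6 (Nr5a2 and Esrrb) were lower in each comparison at an adjusted and at an unadjusted p under 0.05 from limma. At an adjusted p under 0.05, 3302, 3170 and 5922 of all 22441 genes were lower in the 3 comparisons, and 2678, 2710 and 4610 were higher.

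Other homeobox genes of the paired-like class were followed as well. Of 10 measured, 0 were called by limma in +Tx over −Tx cells (3 higher and 3 lower at an unadjusted p under 0.05), 5 were higher in KO/Y over +Tx cells, and 4 were higher and 1 lower in KO/Y over −Tx cells. The shares of all genes called higher were 1.75%, 2.37% and 4.72% in the 3 comparisons, and those called lower 0.762%, 1.05% and 2.84%. Crxos, a homeobox gene of early embryos and ES cells, had 2.19 in KO/Y over +Tx cells (SE 0.07, limma adjusted p = 2.02e-06), and Obox6, an oocyte homeobox gene, had 2.70 (SE 0.31, adjusted p = 0.000449). Obox6 was well above background on 0 of 3 −Tx arrays, 1 of 3 +Tx arrays and 3 of 3 KO/Y arrays, so it was kept only through the group where it was high. Esx1, an X-linked placental homeobox gene, had −0.71 in +Tx over −Tx cells, under the fold limit, and 1.50 in KO/Y over +Tx cells (SE 0.15, adjusted p = 0.00021).

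Tissues in which Rhox genes are known gave mixed counts. Of 16 germ cell genes, 1 was higher and 1 lower in +Tx over −Tx cells, 7 were higher and 1 lower in KO/Y over +Tx cells, and 6 were higher and 2 lower in KO/Y over −Tx cells. Beside these and the trophoblast counts below stand 1.75%, 2.37% and 4.72% of all genes called higher. The shares called lower were 0.762%, 1.05% and 2.84%, in the same order. Dazl, counted as higher in both KO/Y comparisons, was well above background on 1 of 3 −Tx arrays, 2 of 3 +Tx arrays and 3 of 3 KO/Y arrays. It was kept only through the group where it was high. Dppa3 fell by 1.64 on the log2 scale in +Tx over −Tx cells (SE 0.089, limma adjusted p = 6.84e-06) and stood 1.16 higher in KO/Y over +Tx cells. Tuba3a, a testis tubulin, stood 1.38 higher in +Tx over −Tx cells (SE 0.066, adjusted p = 2.83e-06) and 3.02 higher in KO/Y over −Tx cells. Of 14 trophoblast genes, 1 was higher and 3 were lower in +Tx over −Tx cells (Hand1 higher, and Tfap2c, Krt7 and Tead4 lower). Hand1 was well above background on 0 of 3 −Tx arrays and on all 3 arrays of each other group. It was kept only through the groups where it was high, and was at least 2.53-fold higher in +Tx than in −Tx cells. In KO/Y over +Tx cells 5 were higher and 0 lower. In KO/Y over −Tx cells 4 were higher and 1 lower, Tfap2c at −1.38. The 4 include Hand1 and also Cdx2, which was well above background on all 3 KO/Y arrays and on 1 of 3 arrays in each other group. Krt7, a keratin of trophoblast, was well above background on all 3 KO/Y arrays and on 0 of 3 arrays in each other group. Its call in +Tx over −Tx cells is therefore a difference within background, and it was at least 1.73-fold higher in KO/Y than in +Tx cells.

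Markers of other cell types also differed between the groups. Of 15 primitive endoderm markers, a tissue in which Rhox5 is also expressed, 0 were called higher (8 at an unadjusted p under 0.05 from limma) and 1 lower in +Tx over −Tx cells, and 12 were higher in KO/Y over −Tx cells with a median of 2.27. For this and the next 2 lists, the all-gene shares were 1.75% higher and 0.762% lower in +Tx over −Tx cells. They were 4.72% and 2.84% in KO/Y over −Tx cells. The 12 include Sox7 and Sox17, well above background on all 3 KO/Y arrays. In each other group Sox7 was so on 1 of 3 arrays and Sox17 on 0 of 3. Both were kept only through the group where they were high. The log2 of the summed signal of the 15 was 9.06 to 9.09 on the −Tx arrays, 9.20 to 9.24 on the +Tx arrays and 9.59 to 9.71 on the KO/Y arrays. Sparc, the brightest of them, had means of 8.99, 9.12 and 9.49 in −Tx, +Tx and KO/Y cells. This sum therefore mostly follows Sparc. Foxa2, a transcription factor of endoderm that was well above background on 1 of 3 +Tx arrays, had −1.37 in +Tx over −Tx cells (SE 0.21, limma adjusted p = 0.00226) and 3.61 in KO/Y over +Tx cells (adjusted p = 1.3e-05). Of 11 genes of the two-cell embryo, 9 were higher in +Tx and 9 in KO/Y than in −Tx cells, with medians of 3.27 and 4.07. The 9 include Tdpoz3 and Tdpoz4, which were well above background on all 3 KO/Y arrays and on 0 of 3 −Tx arrays. On the +Tx arrays Tdpoz3 was so on 1 of 3 and Tdpoz4 on 2 of 3. Tcstv3, also among the 9, was well above background on 1 of 3 −Tx arrays and on all 3 arrays of each other group. Tdpoz3, Tdpoz4 and Tcstv3 were kept only through a group where they were high. The summed level of the 11 genes on the log2 scale was 5.24 to 5.27 on the −Tx arrays, 7.07 to 7.23 on the +Tx arrays and 7.68 to 7.85 on the KO/Y arrays, without overlap. Of 14 fibroblast markers 1 was called, Lum at 1.12 in KO/Y over −Tx cells. Without the fold limit 8 were higher in +Tx and 14 in KO/Y than in −Tx cells at an adjusted p under 0.05. By that measure 2678 and 4610 of all 22441 genes were higher. The summed level of the fibroblast markers was 8.76 to 8.83 on the −Tx arrays, 9.06 to 9.15 on the +Tx arrays and 9.31 to 9.39 on the KO/Y arrays. All 14 were well above background on every array. Col1a2, for instance, had means of 6.96, 7.22 and 7.48 in −Tx, +Tx and KO/Y cells, far above the 75th percentile. The source of the fibroblast marker RNA was not tested. The part of these other cell types in the Rhox values was not tested.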

How the data were processed

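The deposited intensity values came from the scanner software, which the submitters' notes give as Agilent Feature Extraction 10.7.3.1. Each is a processed Cy3 intensity per spot on a linear scale after background subtraction. The authors also deposited linear signals averaged per feature and group, in which Rhox5 has 145 in −Tx, 80.2 in +Tx and 23.0 in KO/Y cells. These give no single arrays and were not tested. The methods speak of biological triplicates without tying arrays to replicates, so arrays are numbered by slide position. Their number limits the precision.

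In R 4.3.3 with data.table (version 1.17.8), outlier spots (117 to 178 per array) were left out, log2 intensities were reduced by each array's 75th percentile, and spots of a probe were averaged. Of 55681 probes, 31189 were kept and tested singly, and the brightest probe of each of 22441 genes was tested for counts of genes, with limma 3.58.1 (lmFit, eBayes, Benjamini-Hochberg). Calls needed over 2-fold and an adjusted p under 0.05. "At least" folds set the mean of the brighter group against, on each array, the higher of the lowest signal well above background and the probe's own signal. The fit was tested on simulated data. Probe coordinates are mm9, and upstream windows are those of RefSeq on GRCm38.p6. Members and gene lists were chosen with earlier results of these data known. The genes named are all Rhox genes, the 5 most like each of Rhox5, Rhox6 and Rhox9, and called list members or neighbours. Further examples were chosen after their values were seen. Alternatives changed the background correction (normexp, offset 50), the scaling, the filter, the treatment of probes, the slide, the fold limit and single arrays. Python drew the figures.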

Additional observations from a re-analysis of the deposited data

How the results depend on the processing

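For Rhox5, Rhox6 and Rhox9, 176 of 186 recomputed log2 fold changes stayed within the spread of the arrays and 0 changed sign. Each of these genes has 1 probe, well above background on all 9 arrays. The alternatives for the filter and the treatment of probes therefore had to return the main value. So did leaving out an array outside the comparison. The 176 include these values, so the count does not measure how stable the results are. With quantile normalization Rhox5 had −0.76 in +Tx over −Tx and −2.54 in KO/Y over −Tx cells. With normexp Rhox6 had −1.93 and Rhox9 −1.73 in +Tx over −Tx cells, and 1.74 and 1.29 in KO/Y over +Tx cells. With slide as a block Rhox9 had −1.76 in +Tx over −Tx and −0.14 in KO/Y over −Tx cells, and Rhox6 −0.09 in the last. Within the slide that holds both groups Rhox9 had −1.76. Both of these rest on 1 +Tx array.

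Of the other Rhox probes, 134 of 139 values kept their call. Here too, several alternatives could change the adjusted p but not the fold change. With normexp Rhox2e (0.81 in KO/Y over +Tx and over −Tx cells), Rhox2c (0.95) and Rhox2h (0.87, both over −Tx cells) fell under 2-fold. With slide as a block Rhox2c over −Tx cells had 1.52 (limma adjusted p = 0.121). Rhox genes higher in +Tx over −Tx cells numbered 1 in place of 0 with the slide block, within the slide of both groups and without the fold limit (Rhox13 each time), and with every probe tested singly (Rhox10). Leaving out single arrays gave 0 to 1, the 1 being Rhox13 without −Tx array 3 or +Tx array 2. In KO/Y over −Tx cells normexp left 1 Rhox gene higher in place of 4, and no fold limit gave 2 lower in place of 1.

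Called genes in +Tx over −Tx, KO/Y over +Tx and KO/Y over −Tx cells numbered 563, 767 and 1696. There were 206, 256 and 683 with normexp, 302, 378 and 1038 where a probe had to clear background on each array, and 5980, 5880 and 10532 without the fold limit. List medians that moved were, with normexp, primitive endoderm 1.19 in KO/Y over +Tx and 1.29 in KO/Y over −Tx cells, trophoblast 0.37 and 0.32, other homeobox genes 0.53 and 0.42, and two-cell genes 0.75 and 3.65, with 2.65 in +Tx over −Tx cells. With slide as a block, KO/Y over −Tx medians were 0.53 for trophoblast, 4.23 for two-cell genes and −0.17 for DNA methylation genes. The cause of these shifts was not tested. No paired analysis was possible because the sources give arrays no replicate number. Signal near background limits Rhox2c and the 5 genes that were not kept.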
